A study of Mus musculus with 10 samples.

Results

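AP-1 is a family of dimeric transcription factors, and the genes described here are 9 of its subunits: Fos, Fosb, Fosl1 and Fosl2 of the FOS family, Jun, Junb and Jund of the JUN family, and the related factors Atf3 and Batf3. They were picked by name, and all 9 were found among the 24594 genes of the count table and among the 14609 genes that had enough counts to be tested. Transcripts were counted by bulk RNA-seq in luminal cells, the inner layer of the mammary ducts, and in basal cells, the outer contractile layer, from wild-type virgin glands of the C57BL/6J mouse strain. The labels give no genetic change and no treatment for any of them. The study describes digestion of the glands with collagenase and hyaluronidase over many hours. The cells were then released with trypsin and dispase, and both layers were sorted by flow cytometry on EpCAM and CD49f. There were 5 luminal and 5 basal libraries, and same-numbered libraries were read as coming from 1 animal. All libraries went through dissociation and sorting, so transcripts present in the gland and transcripts made while it was taken apart cannot be told apart here.

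Subunits of AP-1 pair through a leucine zipper and bind DNA through the basic region next to it. JUN proteins can pair with each other or with FOS proteins, whereas FOS proteins need a JUN partner. Many of these genes are immediate early genes, whose transcripts rise within minutes of growth factor, stress or mechanical signals and are short-lived, and they are often seen in freshly dissociated tissue.

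Library totals were 13203146 to 17565471 counts in luminal and 13676558 to 17998165 counts in basal libraries. In each of the 10 libraries the title gives the other cell layer than the cell type label does, and the label was followed here. All 8 luminal markers were higher in the libraries labelled luminal and all 8 basal markers were higher in those labelled basal. Elf5 (at most 8 counts in a basal library) and Prlr entered the test through their luminal libraries, where they are high. Cnn1 entered it through its basal libraries, where it is high. The filter is given below. Krt8, a keratin of luminal cells, had 2347 ± 415 CPM in luminal and 510.0 ± 74.7 CPM in basal libraries (SD, n = 5 each), where CPM is a library's count scaled to a common depth. Krt14, a keratin of basal cells, had 11.8 ± 8.65 and 2432 ± 407 CPM in the same order. Basal library 1 stood apart for the AP-1 subunits, as described below, and the fitted differences of the subunits, with some of the levels, shares and spreads, are also given without it. Fewer cells of a type and less RNA per cell cannot be told apart in such bulk samples.

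The question was whether luminal and basal cells differ in AP-1 transcripts. Most subunits were higher in basal cells: Fosl1, Fosl2, Jun, Fosb, Atf3, Fos and Junb passed the test in that direction, Batf3 passed it in luminal cells, and Jund was higher in luminal libraries but did not pass. Thus 7 of 9 subunits were called higher in basal cells, against 31.2% of all genes tested, and 1 of 9 was called higher in luminal cells, against 33.6%. In either direction 8 of 9 were called, against 64.8% of all genes tested. Batf3 entered the test through its luminal libraries, where it is high: the filter asks for 0.651 CPM, or about 10 counts, in 5 libraries, and Batf3 reached this in 5 luminal libraries and 1 basal library. The other 8 subunits reached it in all 10 libraries, and of these 7 were called higher in basal cells, against 30.7% of the 12077 genes that did so, and Jund was not called. The median log2 fold change, luminal minus basal, was -1.05 over the 9 subunits and 0.05 over all genes tested. The 7 subunits lay higher in the basal library of all 5 animals, and Jund and Batf3 lay higher in the luminal library of all 5. The share of all genes tested that lie on 1 side in all 5 animals was not counted. It includes each gene whose ranges are separate. For 5 of 9 subunits the ranges of both cell types were separate, against 50.1% of all genes tested. With the animal as a block, 6 subunits were called higher in basal cells and 2 in luminal cells, since Junb lost its call and Jund gained one. Without basal library 1 the counts were also 6 and 2.

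Some markers of cells outside both layers moved with the cell type as well. Of 4 endothelial markers, Cdh5, the VE-cadherin gene, was called higher in basal libraries (0.217 ± 0.167 CPM in luminal and 4.58 ± 1.48 CPM in basal, SD, n = 5 each, adjusted p = 3.51e-06), Pecam1 was not called, and Kdr and Emcn were not tested, with at most 14 counts. Their sum was 1.685 to 4.06 CPM in luminal and 6.00 to 13.1 CPM in basal libraries. Of 5 fibroblast markers, Pdgfra was higher in basal libraries (5.82 and 12.4 CPM, adjusted p = 0.00594). The proteoglycan gene Dcn was higher in luminal libraries (38.3 and 12.0 CPM, adjusted p = 0.00364), and Col1a1, Col1a2 and Lum were not called. The sum of all 5 was 22.1 to 113 CPM in luminal and 24.8 to 41.5 CPM in basal libraries, with overlap. Of 4 adipocyte markers, Fabp4, a fatty acid carrier, was higher in basal libraries (1.01 and 5.415 CPM, adjusted p = 4.22e-05), whereas Adipoq, which encodes adiponectin, had 0 counts in all libraries and Plin1 and Cidec were not tested. The sum of these markers was 0.611 to 2.21 CPM in luminal and 3.95 to 8.88 CPM in basal libraries. Of 3 erythroid markers in the table, Hba-a1, a globin gene, was higher in luminal libraries (9.73 ± 5.18 CPM, against at most 3 counts in a basal library, adjusted p = 4.41e-07). Alas2 was not called and Hbb-bt was not tested. The sum of all 3 was 4.74 to 18.3 CPM in luminal and 0.546 to 2.28 CPM in basal libraries. Cdh5, Fabp4 and Hba-a1 entered the test through the group where they are high. The study's sorting stain held lineage antibodies against CD31, TER-119 and CD45, which mark endothelial, erythroid and white blood cells. The part of cells outside both layers in the AP-1 differences was not tested.

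**Figure D1:**
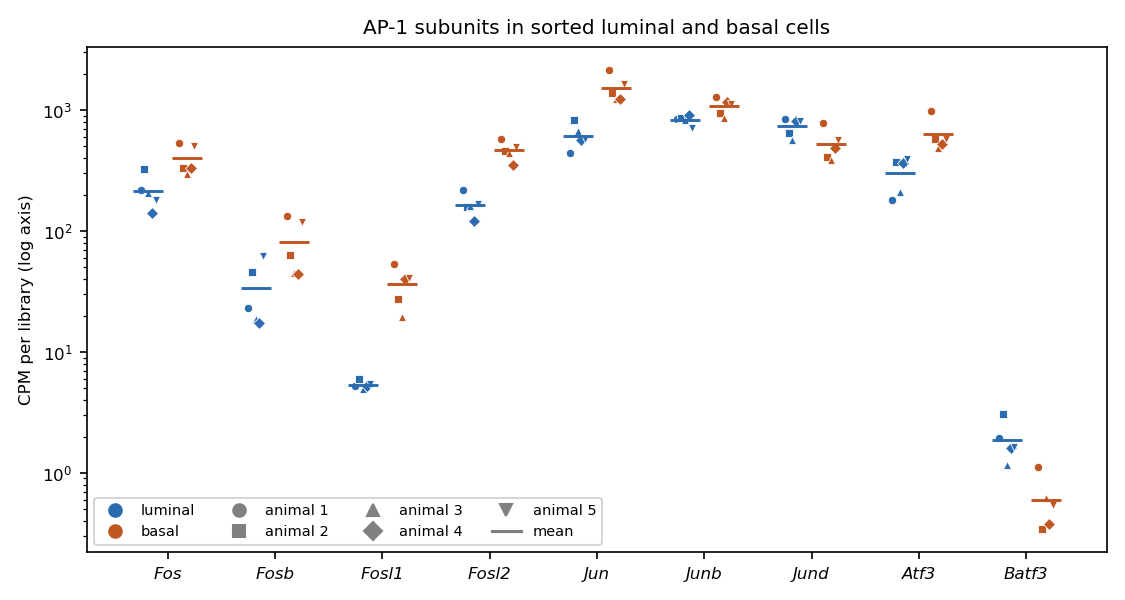
Level of each AP-1 subunit in depth-scaled counts (CPM, log axis) in each luminal (blue) and basal (orange) library, with 1 marker shape for each animal and a line at the mean of the cell type. The basal library of animal 1 is the highest basal library for each of the 9 subunits, and the luminal and basal points do not overlap for Fosl1, Fosl2, Jun, Atf3 and Batf3.

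The FOS family was described first. Fos, the first FOS gene described and a textbook immediate early gene, had 217, 324, 207, 141 and 179 CPM in luminal libraries 1 to 5 and 538, 332, 298, 331 and 508 CPM in basal libraries 1 to 5. Luminal library 2 lay among the basal values, so the groups overlapped, and in animal 2 the cell types were nearly level, with a log2 difference of -0.03. The means were 214 ± 68.3 CPM in luminal and 401 ± 112 CPM in basal libraries (SD, n = 5 each). The fit across all genes gave a log2 fold change of -0.91 (SE 0.23, edgeR adjusted p = 0.00333), which is 1.88-fold higher in basal cells. Without basal library 1 it was -0.79 (adjusted p = 0.0105).

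Fosb, an early FOS subunit that is also made as a shorter splice form, was the most variable. It had 23.0, 45.7, 18.6, 17.4 and 62.8 CPM in luminal libraries 1 to 5 and 133, 63.65, 45.3, 44.3 and 118 CPM in basal libraries 1 to 5. The highest luminal library lay above 2 of the basal libraries, although each animal had more Fosb in its basal library. The fitted log2 difference was -1.27 (SE 0.40, adjusted p = 0.0122), and without basal library 1 it was -1.03 (adjusted p = 0.0393). The differences within an animal ran from -2.53 in animal 1 to -0.48 in animal 2.

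Fosl1, which encodes the FOS-related protein FRA-1, had the largest difference of the 9 subunits. Its level was 5.25, 6.00, 4.97, 5.27 and 5.39 CPM in luminal libraries 1 to 5, from 69 to 114 counts. In basal libraries 1 to 5 it was 53.5, 27.4, 19.5, 40.1 and 40.5 CPM, from 252 to 858 counts. Thus the luminal libraries were close together and low, and the lowest basal library lay well above the highest of them. On the log2 scale the difference was -2.75 (SE 0.24, adjusted p = 2.40e-07), or 6.72-fold higher in basal cells, and -2.58 without basal library 1. Fosl1 lies at chr19:5447698-5455938 on the plus strand (GRCm38, RefSeq), and 1163 of the 2033 exon bases of its GENCODE models are shared with Ccdc85b, which is read from the other strand. The library kit named in the labels does not mark strand, so reads from the shared bases cannot be assigned. Ccdc85b was counted at 62.9 CPM in luminal and 138 CPM in basal libraries (means), with a log2 fold change of -1.13 (adjusted p = 0.00143), in the same direction as Fosl1.

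Fosl2 encodes FRA-2, the other FOS-related protein. It had 216.5, 159, 162, 119.9 and 166.5 CPM in luminal libraries 1 to 5 and 576, 458.5, 441, 349 and 499.6 CPM in basal libraries 1 to 5. The groups did not overlap. Fosl2 was also the subunit whose difference was most alike among the animals, from -1.59 to -1.41 on the log2 scale. The fit across all genes gave a log2 fold change of -1.50 (SE 0.18, adjusted p = 5.05e-06), or 2.82-fold higher in basal cells, and -1.42 without basal library 1.

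Of the JUN subunits, Jun itself had the largest difference. Jun had 438, 829, 668, 566 and 579 CPM in luminal libraries 1 to 5 and 2145, 1396, 1242, 1244 and 1652 CPM in basal libraries 1 to 5. Each basal library was above the highest luminal library. Fitted on the log2 scale the change was -1.32 (SE 0.21, adjusted p = 7.43e-05), or 2.49-fold higher in basal cells, and -1.18 without basal library 1 (adjusted p = 2.00e-04). Jun is a single-exon gene at chr4:95049036-95052222 on the minus strand. An antisense gene, Junos, covers 232 bases of its exon and was not analysed here.

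Junb, a JUN subunit often set against Jun in growth control, differed little. It had 838, 863, 825, 911 and 710.1 CPM in luminal libraries 1 to 5 and 1281, 949, 858, 1173 and 1118 CPM in basal libraries 1 to 5. The groups overlapped. The fit gave a log2 difference of -0.37 (SE 0.16, adjusted p = 0.0471), with the animal as a block it was -0.36 (adjusted p = 0.0624), and without basal library 1 it was -0.32 (adjusted p = 0.105). Leaving out a single library ended the call for 7 of the 10 libraries. Prdx2 on the other strand shares 173 exon bases with Junb and went the other way, with 443 CPM in luminal and 86.6 CPM in basal libraries (means).

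Jund, the JUN subunit usually present in resting cells, went the other way from Jun. It had 841, 642.5, 563, 806 and 808.5 CPM in luminal libraries 1 to 5 and 784, 413, 386, 486.5 and 562 CPM in basal libraries 1 to 5. Basal library 1 lay among the luminal values, and the other 4 basal libraries were below the lowest luminal library. The fitted log2 difference, luminal minus basal, was 0.48 (SE 0.20, adjusted p = 0.0537) and did not pass. With the animal as a block it was 0.51 (SE 0.15, adjusted p = 0.0120), and without basal library 1 it was 0.65 (adjusted p = 0.00746). The single GENCODE exon of Jund shares 877 of 1668 bases with Gm11175 on the other strand, which was not analysed here.

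Atf3, a stress-induced factor that pairs with itself or with JUN proteins, had 181, 373, 211, 366 and 391 CPM in luminal libraries 1 to 5. In basal libraries 1 to 5 it had 987.5, 571, 488, 519 and 576 CPM. The groups did not overlap, and luminal libraries 1 and 3 were the lowest. The fit gave a log2 difference of -1.05 (SE 0.26, adjusted p = 0.00245), and -0.84 without basal library 1 (adjusted p = 0.00692). Within animals the difference ran from -2.45 in animal 1, which had both the highest basal and the lowest luminal library, to -0.50 in animal 4.

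Batf3, a partner of JUN proteins best known from dendritic cells, was close to the detection limit. It had 31, 58, 19, 21 and 26 counts in luminal libraries 1 to 5 and 18, 5, 8, 6 and 9 counts in basal libraries 1 to 5. In CPM this was 1.88 ± 0.711 in luminal and 0.599 ± 0.314 in basal libraries (SD, n = 5 each). The groups did not overlap, and the fitted log2 difference was 1.64 (SE 0.45, adjusted p = 0.00573), or 1.985 without basal library 1 (adjusted p = 0.00292). As the filter kept Batf3 through the group where it is high, its call among the tested genes is a description. With no filter the log2 difference was 1.57 (adjusted p = 0.0168). Of the immune markers, Ptprc, the pan-leukocyte gene CD45 against which the sort selected, had at most 6 counts in a luminal and 1 in a basal library, and Cd3e had 0 counts in all libraries. Cd52 and Lyz2 were called higher in luminal cells, and Cd74, a gene of antigen-presenting cells, was called higher in basal cells. The summed level of the 6 immune markers was 4.13 to 11.3 CPM in luminal and 12.2 to 34.6 CPM in basal libraries, and the part of such cells in the Batf3 counts was not tested. Cd52 and Lyz2, like Batf3, entered the test through their luminal libraries.

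**Figure D2:**
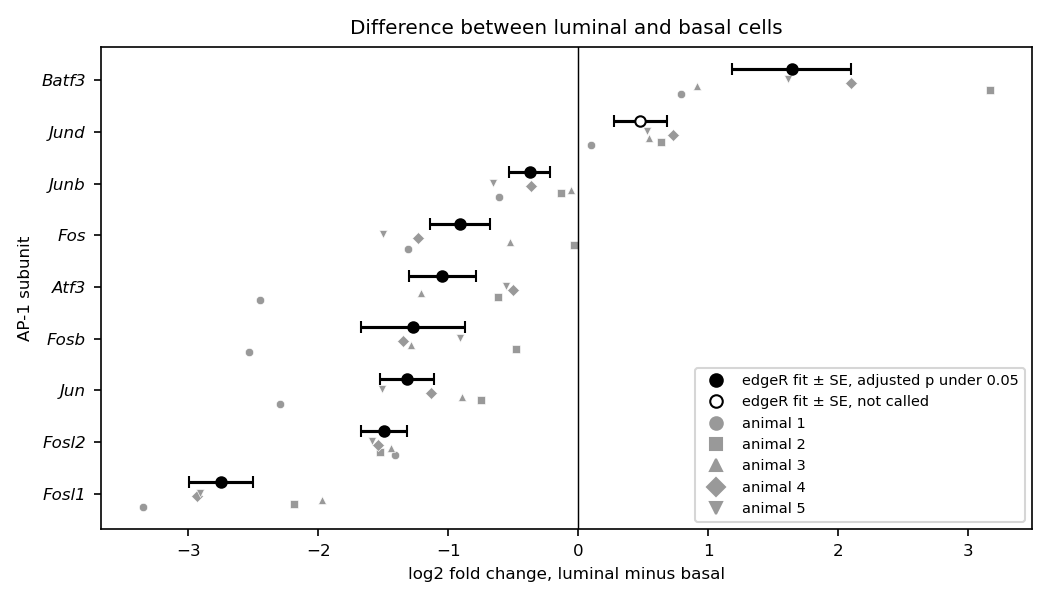
Log2 fold change of each AP-1 subunit, luminal minus basal, as fitted by edgeR (black, with the SE; open where the adjusted p was above 0.05) and as the difference within each of the 5 animals (grey). The fitted values run from -2.75 for Fosl1 to 1.64 for Batf3, and the animals lie on 1 side of 0 for each subunit. How many of all genes tested do so was not counted.

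To compare subunits with each other, CPM was divided by the length in kb of the longest GENCODE transcript of each gene. On this scale the 9 subunits summed to 1241 to 1506 CPM per kb in luminal and 1573 to 2757 CPM per kb in basal libraries, without overlap. The GENCODE model of Jund, of 1668 bases, starts 1210 bases downstream of its RefSeq start. If transcripts from the RefSeq start were counted, the levels, ranks and shares of Jund per kb would be too high. In luminal cells the order of the mean levels was Junb at 459 ± 41.2, Jund at 439 ± 73.2, Jun at 193 ± 45.4, Atf3 at 153.5 ± 50.4, Fos at 101 ± 32.4, Fosl2 at 25.2 ± 5.26, Fosb at 8.85 ± 5.28, Fosl1 at 2.89 ± 0.206 and Batf3 at 1.70 ± 0.641 CPM per kb (SD, n = 5). Neighbours whose library ranges overlapped were Junb and Jund, Jun and Atf3, Atf3 and Fos, and Fosl1 and Batf3. In basal cells the order was Junb at 595 ± 94.6, Jun at 482 ± 119, Atf3 at 317 ± 103, Jund at 315.5 ± 95.6, Fos at 190.4 ± 53.2, Fosl2 at 71.1 ± 12.7, Fosb at 21.4 ± 11.1, Fosl1 at 19.4 ± 7.05 and Batf3 at 0.540 ± 0.283 CPM per kb. The ranges of the neighbours from Junb down to Fos overlapped, as did those of Fosb and Fosl1. Thus Jun and Atf3 stood above Jund in the basal order and below it in the luminal order, although Atf3 and Jund differed by less than their spread in basal cells. Without basal library 1 the basal means were 271.5 ± 21.3 for Atf3 and 277 ± 47.3 CPM per kb for Jund (SD, n = 4), so that this order turned, whereas Jun at 434 ± 60.5 stayed above both. The summed level of the other 4 basal libraries was 1573 to 2134 CPM per kb.

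Most subunits were abundant transcripts. Among 13701 tested genes with a known length, Junb ranked 103 in luminal and 69 in basal cells, Jund 109 and 141, Jun 277 and 87, Atf3 353 and 140, and Fos 567 and 261. Fosl2 ranked 2558 and 900. Fosb moved from rank 6017 in luminal to 3123 in basal cells and Fosl1 from 9673 to 3403. Batf3 was at rank 10778 and 12347.

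Composition was taken as each subunit's share of the summed CPM per kb in a library, as a description without a test. JUN subunits made up 78.9% ± 3.32 of the sum in luminal and 69.4% ± 1.93 in basal libraries (SD, n = 5 each), with ranges of 74.5% to 82.3% and 67.1% to 72.5% that did not overlap. FOS subunits made up 9.99% ± 2.35 in luminal and 14.97% ± 1.48 in basal libraries, with ranges of 6.43% to 12.8% and 13.3% to 17.35%. Atf3 and Batf3 together made up 11.1% ± 3.14 and 15.6% ± 1.77. The ratio of the summed FOS to the summed JUN level was 0.127 ± 0.0329 in luminal and 0.216 ± 0.0243 in basal libraries, again without overlap.

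Within the JUN family, Jun and Jund were the subunits whose shares differed. Jun was 10.2%, 17.3%, 16.9%, 12.3% and 13.1% of all subunits in luminal libraries 1 to 5 and 24.4%, 24.9%, 24.8%, 21.2% and 24.3% in basal libraries 1 to 5. Jund was 37.5%, 25.6%, 27.2%, 33.5% and 34.9% in luminal and 17.1%, 14.1%, 14.7%, 15.9% and 15.8% in basal libraries. Both shares separated the cell types without overlap. The ratio of Jun to Jund was 0.272 to 0.675 in luminal and 1.34 to 1.77 in basal libraries. On this scale Jund thus exceeded Jun in each luminal library and Jun exceeded Jund in each basal library. The luminal order depends on the length of Jund, whose GENCODE model may be too short, as given above. With the coding length and in plain CPM, 2 of the 5 luminal libraries had more Jun than Jund. Without basal library 1 the basal means were 69.98% for JUN, 15.02% for FOS, 23.8% for Jun and 15.1% for Jund. Junb had a share of 33.2% ± 3.30 in luminal and 29.99% ± 3.46 in basal libraries, with overlapping ranges.

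Within the FOS family Fos had the largest share on this length scale, at 72.7% ± 5.22 of the family in luminal and 62.8% ± 1.92 in basal libraries. Its range in luminal libraries, 65.4% to 79.5%, lay above that in basal libraries, 60.8% to 65.05%. Fosl1 took 2.19% ± 0.523 of the family in luminal and 6.39% ± 1.64 in basal libraries, without overlap. Fosl2 took 18.8% ± 3.76 and 24.1% ± 3.79 and Fosb 6.39% ± 3.69 and 6.71% ± 1.78, both with overlap.

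The shares depend on the length used. With no length scaling the FOS share was 14.4% in luminal and 20.7% in basal libraries and the JUN share 75.2% and 66.2%, so the direction between cell types was kept. With the coding length Fosl2, a gene with a long untranslated part, was 5.52% in place of 1.84% of the sum in luminal and 9.28% in place of 3.59% in basal libraries. In basal libraries Fosl2 then exceeded Fos (9.28% against 6.74%), as it did with no length scaling (9.92% against 8.39%), and in luminal libraries Fos stayed above Fosl2 under each length. In basal libraries Jun exceeded Junb under the exon union length, the coding length and no length scaling, at 26.65%, 29.4% and 32.3% against 26.3%, 20.4% and 23.0%. Atf3 exceeded Junb there with the coding length, at 22.0%. With the exon union length Jund exceeded Atf3 in basal libraries (17.3% against 16.0%), as did Fosl1 Fosb (0.9675% against 0.688%), and in luminal libraries Jund stood first, at 35.1% against 28.9% for Junb. The exon union of Jund also has 1668 bases, so its first place there has the limit given above. Thus Junb leads the luminal order with 3 of the 4 scalings and the basal order with the longest transcript only.

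**Figure D3:**
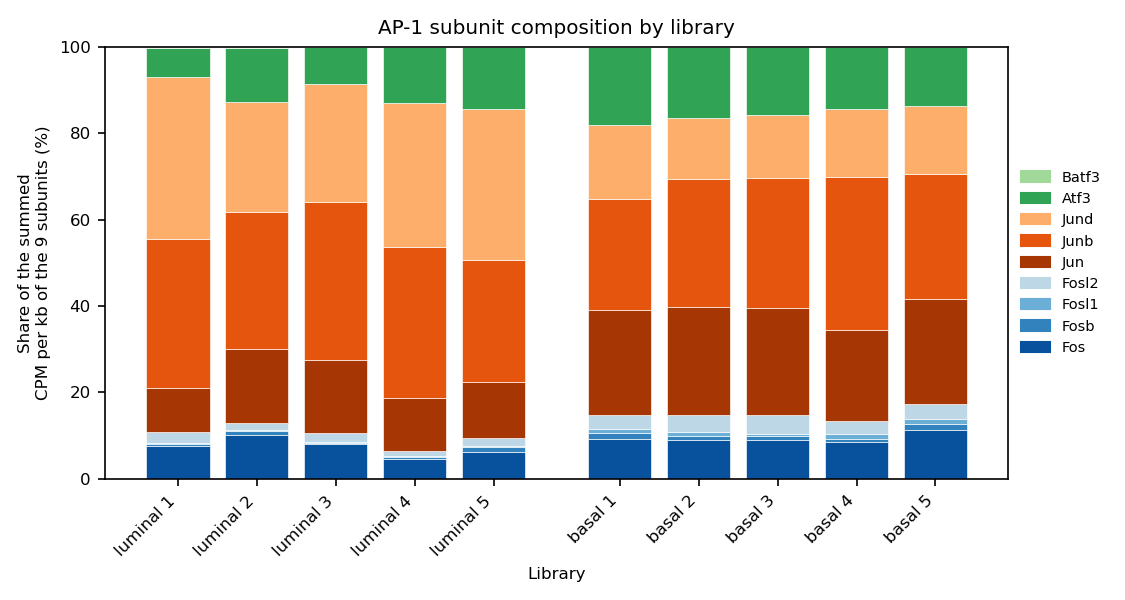
Share of each AP-1 subunit, in percent of the summed CPM per kb of the 9 subunits, in each of the 10 libraries (stacked bars, FOS family in blue, JUN family in orange, Atf3 and Batf3 in green). Jund takes 25.6% to 37.5% in luminal and 14.1% to 17.1% in basal libraries, and Jun 10.2% to 17.3% and 21.2% to 24.9%.

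The spread among libraries of 1 cell type was measured as the SD of log2(CPM + 0.5), again without a test. Fosb had the widest spread, 0.81 in luminal and 0.75 in basal libraries, above that of 94.8% and 97.2% of all genes tested. Junb had a narrow spread in luminal libraries, 0.13, above only 6.71% of genes, and 0.23 in basal libraries. Fosl1 had the narrowest of the subunits in luminal libraries, 0.09 (above 2.02% of genes), and a wide one in basal libraries, 0.56 (above 91.0%). The spread was 0.44 and 0.39 for Fos, 0.34 and 0.33 for Jun, 0.52 and 0.40 for Atf3, 0.30 and 0.27 for Fosl2 and 0.25 and 0.41 for Jund in luminal and basal libraries. Single libraries carried part of other spreads too. Without luminal library 2 the luminal spread was 0.28 for Fos, 0.05 for Fosl1 and 0.23 for Batf3 (0.40 with it), without luminal library 5 it was 0.06 for Junb, and without basal library 4 the basal spread of Fosl2 was 0.17. The median over all genes tested was 0.34 in luminal and 0.27 in basal libraries.

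A single basal library was high for all the subunits. Basal library 1 was the highest basal library for 9 of 9 subunits, whereas it was the highest for 22.2% of all genes tested. It was also the highest for 22 of 31 immediate early genes, 8 of 9 MAPK phosphatases and 8 of 11 heat shock genes, for 8 of 19 MAP kinases, 5 of 12 factors that act on immediate early genes and 5 of 14 other bZIP factors, but for only 2 of 13 AP-1 targets, lists that are described below. Its total was the largest of the 10 libraries and its scaling factor of 0.892 the smallest. The part of these features in the AP-1 levels was not tested. Without basal library 1 the basal spread of Jun fell from 0.33 to 0.19, that of Atf3 from 0.40 to 0.11, that of Jund from 0.41 to 0.24 and that of Batf3 from 0.38 to 0.20, each by over 1.5 times, and those of Fosb and Fosl1 from 0.75 to 0.66 and from 0.56 to 0.50. In CPM the basal SD of Atf3 was 42.2 without it. Basal library 3 was the lowest basal library for 6 of 9 subunits, against 15.2% of all genes tested. In luminal libraries no library was the highest for all subunits: library 2 was the highest for 4, libraries 1 and 5 for 2 each and library 4 for 1. Luminal libraries 1, 2, 4 and 5 were the highest for 24.2%, 17.75%, 26.5% and 17.3% of all genes tested.

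The subunits did not all rise and fall together in the luminal libraries. Those above their luminal mean numbered 5, 7, 3, 3 and 5 of 9 in luminal libraries 1 to 5. In luminal library 1 Atf3 and Jun deviated from their luminal means by -0.67 and -0.46 on the log2 scale, while Fosl2 was 0.42 above. In luminal library 5 Fosb was 1.09 above its mean and Fos was at -0.20. In basal library 1 the deviations ran from 0.27 for Junb to 0.87 for Fosb, all above the mean.

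**Figure D4:**
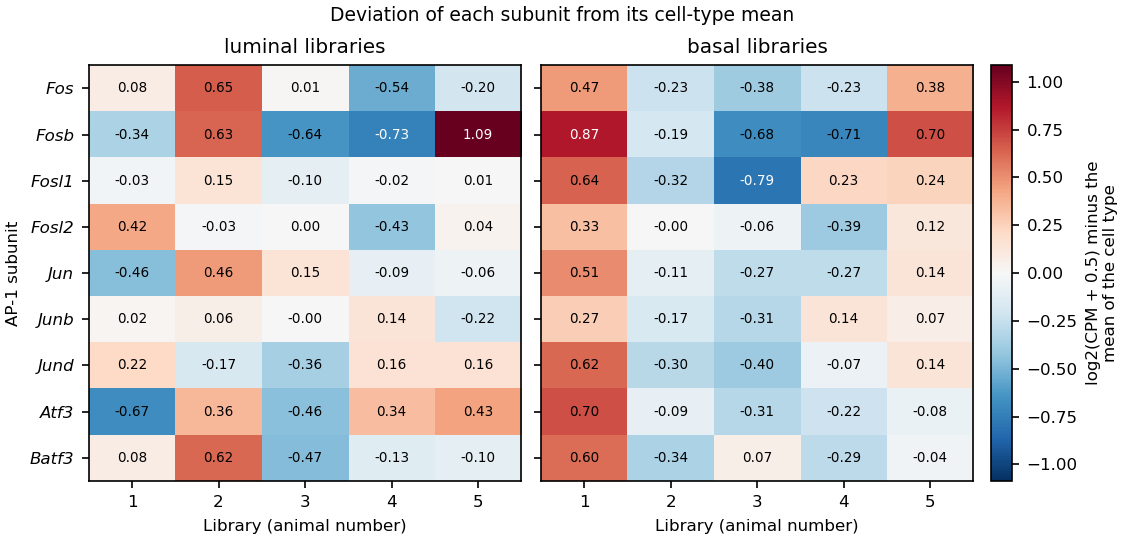
Deviation of log2(CPM + 0.5) of each AP-1 subunit from its mean over the 5 libraries of the cell type, by library (colour and printed value, red above and blue below the mean). Basal library 1 is above the mean for all 9 subunits, from 0.27 to 0.87, and luminal library 5 holds the largest deviation, 1.09 for Fosb.

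Likeness of pattern was then described as Pearson's r of these deviations over the 10 libraries, among 8482 genes with a mean of at least 10 CPM in both cell types. Libraries within a cell type share its mean and their own depth, so these are descriptions only. The genes most like Fos were Efnb2, an ephrin ligand (r = 0.965), Zfand5 (0.947) and Tatdn2 (0.934). Those most like Jun were Zbtb48 (0.979), Zfp280d (0.970) and Slc20a1, a phosphate transporter (0.970). Those most like Atf3 were Eif3e, a subunit of a translation initiation factor (0.960), Ube2d3, a ubiquitin-conjugating enzyme (0.946), and Usp22, a deubiquitinase (0.934). No AP-1 subunit was among these leading genes, but Fosl1 and Batf3 averaged under 10 CPM in luminal libraries and were not compared. Jun ranked 184 in likeness to Fos (r = 0.727), Fosb 377 (r = 0.654) and Atf3 2596 (r = 0.259). Jun and Atf3 had r = 0.686, and Fosl2 and Atf3 had r = -0.09.

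A promoter window from RefSeq (GRCm38.p6) was at hand for 8 subunits, all but Fosl1. Since 7 subunits were called in 1 direction between the cell types, the 250 bases before the start were searched on both strands for TGACTCA (the AP-1 site or TRE), TGACGTCA (the CRE), TGACATCA (its Jun variant), TGACG (the CRE core, which the full CRE contains), TATAAA and the CArG box bound by SRF. TGACTCA, TGACGTCA and the CArG box were found in none of the 8 windows, and 4.46%, 1.55% and 1.47% of all 32851 promoter windows hold them. TGACATCA was found in Jun only, 45 bases before the start, against 2.93% of all windows. TGACG was found in Fos (129 and 66 bases before the start), Fosb (60 bases), Junb (106 bases) and Atf3 (7 bases, on the other strand, as CGTCA), so in 4 of 8 windows, against 17.8% of all windows. These 4 windows hold 58.4%, 68.8%, 66.4% and 65.2% G and C in the order named, and the windows without TGACG 47.6% to 76%. The median of all windows is 52.4%, so the compared windows are not matched for base composition. The last 73 bases of the Fosb window, with its match, lie inside the RefSeq span of the gene, although the match is upstream of each GENCODE start. The Atf3 window lies within a GENCODE transcript that starts 34706 bases upstream, and its last 7 bases, which hold the match, are exonic in GENCODE. TATAAA was found in Fos only, 33 bases before the start, against 12.4%. Fosl2, Jund and Batf3 held none of these letters in this window. The nearest GENCODE start is the same base for Fos and Jun, 1 base away for Fosb, 7 for Atf3, 30 for Junb, 31 for Batf3, 299 for Fosl2 and 1210 for Jund, so the windows of Fosl2 and Jund are not those next to a GENCODE start. All 250 bases of the Fosl2 window and 163 of the Batf3 window are exonic in GENCODE. The windows of Fos (chr12:85473640-85473889, plus strand), Jun (chr4:95052223-95052472, minus strand), Junb (chr8:84978749-84978998, minus strand) and Atf3 (chr1:191183334-191183583, minus strand) are shown because these subunits were called higher in basal cells and hold a match, with the matches in capitals, 5′ to 3′. The window of Fosb, whose last 73 bases are part of the RefSeq gene, is not shown.
Fos: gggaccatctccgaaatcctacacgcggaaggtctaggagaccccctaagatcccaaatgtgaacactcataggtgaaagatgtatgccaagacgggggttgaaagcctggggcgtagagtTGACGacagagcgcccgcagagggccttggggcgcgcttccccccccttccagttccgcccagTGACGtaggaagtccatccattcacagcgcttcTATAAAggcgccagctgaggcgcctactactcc
Jun: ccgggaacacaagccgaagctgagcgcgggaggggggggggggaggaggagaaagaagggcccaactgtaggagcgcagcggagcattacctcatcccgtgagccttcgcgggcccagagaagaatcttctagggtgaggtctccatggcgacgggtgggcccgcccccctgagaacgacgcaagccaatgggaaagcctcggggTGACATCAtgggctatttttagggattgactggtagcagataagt
Junb: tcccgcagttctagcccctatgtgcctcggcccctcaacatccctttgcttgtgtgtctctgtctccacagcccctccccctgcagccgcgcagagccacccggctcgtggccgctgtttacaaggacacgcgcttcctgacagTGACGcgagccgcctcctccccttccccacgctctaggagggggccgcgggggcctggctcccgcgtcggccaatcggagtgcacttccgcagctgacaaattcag
Atf3: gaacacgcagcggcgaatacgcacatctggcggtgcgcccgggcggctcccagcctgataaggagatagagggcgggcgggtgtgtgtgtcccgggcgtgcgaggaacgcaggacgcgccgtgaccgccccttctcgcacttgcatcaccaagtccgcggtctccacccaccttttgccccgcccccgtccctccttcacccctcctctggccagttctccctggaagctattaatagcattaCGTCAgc
The window of Jun thus holds another match than those of Fos, Junb and Atf3. A match is a description of the sequence and not a binding site in these cells.

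Genes around AP-1 were then counted from lists of the pathway, beside shares of 33.6% of all genes tested called higher in luminal and 31.2% in basal cells. Without basal library 1 each count of called genes in these lists was the same or differed by 1. Of 14 other bZIP factors that can share partners or sites with AP-1, 8 were higher in basal cells, 1 was higher in luminal cells and 5 did not pass, with a median log2 fold change of -0.64. Maf, a large MAF factor, had the largest basal difference (2.89 ± 0.512 CPM in luminal and 44.3 ± 19.6 CPM in basal libraries, log2 fold change -3.94, adjusted p = 6.68e-08). Jdp2, a repressor that pairs with JUN proteins, followed at -1.99 (9.04 and 36.1 CPM). Batf, the relative of Batf3, was the factor called higher in luminal cells, at 0.82 (8.95 and 5.06 CPM, adjusted p = 0.0143).

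Of 19 MAP kinases and their kinases tested (Mapk10 reached the filter's minimum in 3 libraries only), 8 were higher in luminal cells, a share near that of all genes, 3 were higher in basal cells and 8 did not pass (median 0.18). Mapk12, a p38 kinase, was at 27.6 ± 7.41 CPM in luminal and 0.518 ± 0.355 CPM in basal libraries (log2 fold change 5.70, adjusted p = 9.75e-09). It reached the filter's minimum in 5 luminal libraries and 1 basal library, so it entered the test, and the count of 8, through the group where it is high. The same holds for Mapk11, also among the 8, which reached the minimum in 5 luminal and 3 basal libraries. Mapk13, another p38 kinase, was at 79.7 and 39.5 CPM (1.01). Mapk8, which encodes the JUN kinase JNK1, was higher in basal cells (26.0 and 48.7 CPM, -0.90, adjusted p = 3.545e-05), as was Map2k1, the kinase MEK1 (116.8 and 209.5 CPM, -0.84). Of 12 factors known to act on immediate early genes, namely SRF with its cofactors and ELK partners, MEF2 factors and CREB family members (Creb1 and Crem are also in the bZIP list), 9 were higher in basal cells, 1 in luminal cells and 2 did not pass (median -0.94). Mrtfa, a cofactor of SRF, was among the former (-1.74), and its relative Mrtfb was the factor higher in luminal cells (0.92). Mef2c, a MADS-box factor of muscle, had at most 2 counts in a luminal library and 27.1 ± 11.6 CPM in basal libraries. It reached the filter's minimum in basal libraries only, so its place among the 9 rests on the group where it is high.

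Of 31 other immediate early genes, 19 were higher in basal cells, 8 in luminal cells and 4 did not pass, with a median of -1.20. Klf2, among the 19, reached the filter's minimum in 4 luminal and 5 basal libraries, so it was tested through the group where it is high. The largest basal differences were those of Egr2, a zinc finger factor (1.53 ± 0.322 CPM in luminal and 154 ± 27.4 CPM in basal libraries, -6.66, adjusted p = 2.75e-11), and Arc, best known from neurons (4.27 ± 2.03 and 394 ± 222 CPM, -6.52). The largest luminal differences were those of Gadd45a, a stress sensor (455 and 113 CPM, 2.004 on the log2 scale), and Nfkbia, the inhibitor of NF-kB (389.6 and 155 CPM, 1.33). Thus the early genes did not all move with the AP-1 subunits.

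Downstream, 4 of 9 MAPK phosphatases tested (Dusp2 reached the minimum in 1 library only) were higher in basal cells, 2 in luminal cells and 3 did not pass (median -0.32). Dusp6 and Dusp1 were the largest in basal cells (-2.10 and -2.08 on the log2 scale), and Dusp10 and Dusp16 in luminal cells (2.13 and 1.03). Of 16 genes often given as AP-1 targets, the proteases Mmp9, Mmp10 and Mmp13 reached the filter's minimum in too few libraries to be tested. Mmp9 and Mmp10 had at most 17 counts, whereas Mmp13 had 264 counts in 1 basal library, 23 in the next and at most 2 in a luminal library. Of the other 13, 7 were higher in basal cells, 3 in luminal cells and 3 did not pass (median -0.69). Il6, among the 7, had 0 to 1.27 CPM in luminal and 0.750 to 4.84 CPM in basal libraries. It entered the test, and the count of 7, through the group where it is high. Vegfa, a vascular growth factor, was at 506 ± 247 CPM in luminal and 4843 ± 936 CPM in basal libraries (-3.26), and Plau, a protease, at 14.7 and 97.0 CPM (-2.72). Ccnd1, the cell cycle gene cyclin D1, was higher in luminal cells at 96.8 ± 27.2 and 4.80 ± 0.478 CPM (4.33, adjusted p = 7.76e-10), as was Hbegf, an EGF family ligand (12.1 and 3.29 CPM, 1.88).

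Heat shock genes, the other class often seen after dissociation, went the opposite way from AP-1. Of 11 genes, 10 were higher in luminal cells and 1 did not pass, with a median of 1.37. Hsp90aa1, a chaperone, was at 1287 ± 544 CPM in luminal and 359 ± 75.5 CPM in basal libraries (log2 fold change 1.84, adjusted p = 2.18e-05), and Hspb1, a small heat shock protein, at 2406 ± 566 and 682 ± 346 CPM (1.82, adjusted p = 0.000111). The summed level of the 11 genes was 8398 to 11580 CPM in luminal and 2753 to 5852 CPM in basal libraries.

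**Figure D5:**
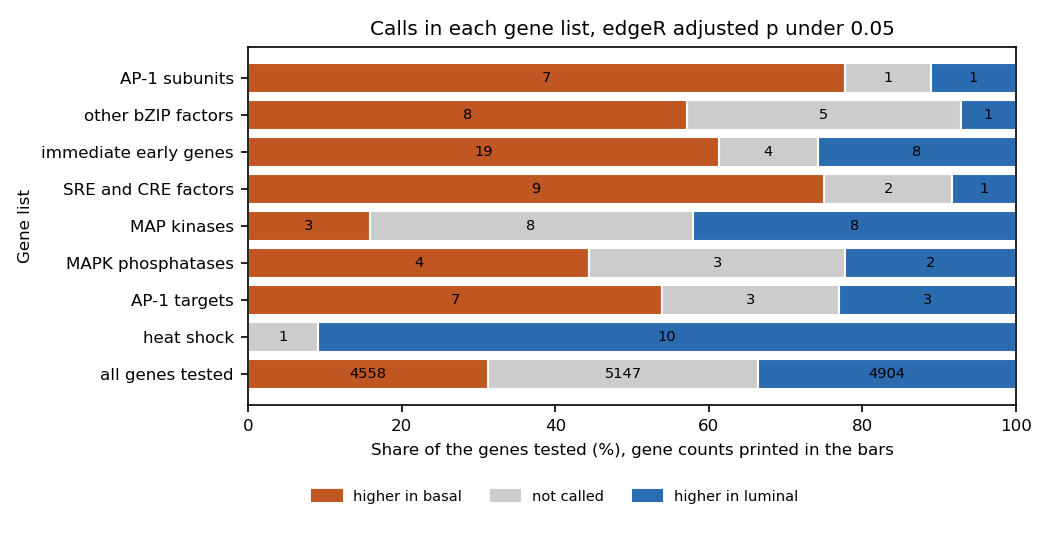
Share of the genes tested in each list that were called higher in basal cells (orange), not called (grey) or called higher in luminal cells (blue) by edgeR at an adjusted p under 0.05, with gene numbers in the bars. In basal, uncalled and luminal order the AP-1 subunits stand at 7, 1 and 1, beside 4558, 5147 and 4904 of all genes tested.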

How the data were processed

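The deposited table holds raw counts per gene (Entrez identifiers), not normalized, in 1 column per library. Adapters were removed with cutadapt 4.2 and reads aligned with Bowtie2 2.3.5.1 per the submitters' processing notes, which name the builds hg19 and mm10. The study describes single-end reads, alignment to mm10 and fewer replicates per condition. The counting tool and its annotation are not given in the sources used here. Of 24594 genes, 24570 were matched to a symbol through RefSeq (GRCm38.p6), which also gave the coordinates.

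Groups follow the cell type label. Genes passing filterByExpr of edgeR (minimum count 10, minimum total 15) were scaled with TMM factors, and luminal was compared with basal by edgeR's quasi-likelihood test (edgeR 4.0.16, R 4.3.3) with Benjamini-Hochberg adjustment over 14609 genes. SEs were derived from the fitted log2 difference and the root of its F statistic. The fit was also run on simulated data with few changed genes and no animal effect. Such data cannot check the scaling in these libraries, where 64.8% of genes tested were called. CPM uses the TMM-scaled total. Lengths are of the longest GENCODE M21 transcript.

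The pairing comes from the number that opens each library's description, which same-numbered libraries share and which was read as the animal. Their deviations from the group means correlated at -0.10, 0.10, -0.04, 0.15 and 0.06 for numbers 1 to 5. If animals were not separate, p-values measure only the spread between these samples.

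Alternatives were other scaling (DESeq2 size factors, upper-quartile factors, library totals only), other filters, DESeq2 1.42.0, limma voom (3.58.1), the animal as a block, other gene lengths and leaving out each library. The subunits and gene lists were chosen with earlier results of these data known. All 9 subunits are named. From each list up to 2 called genes were named in each direction, those with the largest log2 fold change among genes averaging 5 CPM or more in the cell type where they were higher, and for Fos, Jun and Atf3 the 3 genes most like them. Krt8, Krt14, markers of other cell types, genes that could not be tested and genes overlapping a subunit are named where a check turns on them. So are genes that entered the test through the group where they are high.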

Additional observations from a re-analysis of the deposited data

Results flagged for a closer look

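In 89 groups of 5 libraries, 1 library lay far from the other 4 in 5 groups, where chance gives about 4.45. Atf3 was 987.5 CPM in basal library 1, against 488 to 576 CPM in the other basal libraries. The share of Fos among the AP-1 subunits was 11.3% in basal library 5, against 8.56% to 9.26% in the others. The share of Jun was 21.2% in basal library 4, against 24.3% to 24.9% in the others. Dusp1, a MAPK phosphatase, was 134.7 CPM in luminal library 2, against 86.6 to 100.1 CPM. Nfkbia was 637.5 CPM in luminal library 4, against 291 to 378 CPM.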

How the results depend on the processing

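Under the settings that left out no library, 63 of 71 fold changes of the subunits kept their direction and their side of the threshold, and all 71 kept their direction. Fos, Fosb, Fosl1, Fosl2, Jun and Atf3 were called in all 8 settings and Batf3 in the 7 that tested it, since it has under 10 counts in some libraries. Junb lost its call with upper-quartile factors (-0.25, adjusted p = 0.166), library totals only (-0.18, adjusted p = 0.308), a minimum of 10 counts per library (-0.37, adjusted p = 0.0579) and the replicate block (-0.36, adjusted p = 0.0624). Jund gained one with upper-quartile factors (0.60, adjusted p = 0.0169), library totals only (0.66, adjusted p = 0.00617), limma voom (0.51, adjusted p = 0.0294) and the replicate block (0.51, adjusted p = 0.0120). The cause was not tested. Upper-quartile factors and library totals moved the median of all genes by 0.12 and 0.19 (log2). Subunits called higher in luminal cells were 2 with upper-quartile factors, library totals only, limma voom and the replicate block, and 0 with a minimum of 10 counts per library, where Batf3 is not tested. The block changed no other subunit's call. With a library left out, Junb ranged from -0.44 to -0.32 (adjusted p 0.0321 to 0.105), Jund from 0.38 to 0.65 (adjusted p 0.00746 to 0.1415), and the count called higher in luminal cells from 1 to 2 (2 without luminal library 3 or basal library 1). Other bZIP factors higher in luminal cells numbered 2 with upper-quartile factors, library totals only and limma voom, and 1 to 2 with a library left out (2 without luminal library 4). Family shares moved with length: with the coding length FOS was 12.8% in luminal and 18.3% in basal and JUN 69.2% and 59.6%, and with no length scaling FOS was 14.4% and 20.7% and JUN 75.2% and 66.2%. Of 192 shares recomputed, 45 moved by more than 1 SD. All 430 fold changes of the 24 list genes named for the size of their change kept their direction and call. Depth limits Batf3, with 5 to 18 counts in basal libraries.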
